A study of Saccharomyces cerevisiae with 94 samples.

Results

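The 33 nuclear genes of the mitochondrial respiratory complexes were followed through a synchronous cell cycle in a pair of budding yeast strains. They were taken by name from a table of 6444 genes, not by their values. The set holds 8 subunits of cytochrome c oxidase (complex IV), 9 of the cytochrome bc1 complex (complex III), 10 of the ATP synthase (complex V), the 4 subunits of succinate dehydrogenase (complex II) and both cytochrome c genes. All 33 passed the filter on low values, a mean of at least 10 normalised reads.

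Both strains were W303 MATa haploids with the auxotrophic alleles of that background and a deletion of SML1, which encodes an inhibitor of ribonucleotide reductase. The deletion was marked with URA3 in the control strain and with HphMX in the SSDDCS strain. The SSDDCS strain carried, in addition, extra copies of 6 genes of replication initiation, all driven by the GAL1-10 promoter, which ties their expression to galactose. These were CDC45 with SLD7 at LEU2, DBF4 with SLD3 at HIS3 and DPB11 with SLD2 at TRP1. The study lists the copies at HIS3 as Dbf4-A and SLD3-A. The control strain, sml1Δ, carried none of these constructs. They brought the marker genes LEU2, HIS3 and TRP1 with them, so the strains also differed in these, in URA3 and in HphMX. Effects of the factors and of the markers cannot be told apart in the comparison of the strains. Both were grown in raffinose, arrested in G1 with alpha factor, given galactose during the arrest and released into galactose medium, so that galactose, the arrest and the SML1 deletion were common to all groups and induction of the factors was specific to SSDDCS. Each strain was sampled in G1 and at 5, 10, 15, 20, 25, 30, 35, 40, 45, 50 and 60 min after release, in 4 replicates, with 3 replicates of each strain analysed at 25 min. Nothing in the labels says whether the replicates came from separate clones, so p-values measure the spread between these samples. The comparison of the strains asks whether earlier firing of replication origins is accompanied by a change in expression. A comparison with G1, which always uses the same 4 G1 libraries of a strain, asks how the genes moved after release, and in it the removal of alpha factor, the fresh medium and the passage through S phase cannot be told apart.

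The 94 libraries held 8119387 to 21677438 reads, with a median of 10031426. Those of replicate 1 were deeper than the rest, with medians of 15435433 in SSDDCS and 20480360 in sml1Δ. As a check of the labels, each of the 6 factors was called higher at all 12 times in SSDDCS, by 2.39 to 7.31 on the log2 scale. The summed level of 5 MATa markers was 1303 to 70341 normalised reads in SSDDCS and 779 to 72332 in sml1Δ, and that of 4 MATalpha markers was 432 to 1075 in SSDDCS and 449 to 792 in sml1Δ. In sml1Δ the lowest MATa sum lay below the highest MATalpha sum. These ranges alone therefore do not show the mating type of every library. A strain difference was called at 1 or more time points for 2771 of 6404 genes (43.3%). Values are reads divided by a size factor for each library, a difference is on the scale of log2(value + 1), and a gene was called at an adjusted p under 0.01 in limma with Benjamini-Hochberg adjustment over all genes tested. In bulk cultures, fewer cells with a transcript and less transcript per cell cannot be told apart.

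In the respiratory chain, succinate dehydrogenase oxidises succinate and passes electrons to ubiquinone, the bc1 complex hands them on to cytochrome c, and cytochrome c oxidase gives them to oxygen. The proton gradient that complexes III and IV build drives the ATP synthase. Budding yeast lacks a proton-pumping complex I and uses single-subunit NADH dehydrogenases instead. A few core subunits are encoded in mitochondrial DNA, and all others are nuclear genes whose transcription in yeast is repressed by glucose and raised on carbon sources that favour respiration. The CCAAT-binding complex of Hap2, Hap3 and Hap5 with the activating subunit Hap4, and the haem-responsive factor Hap1, are the best known activators of these genes.

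The 33 genes lie on 13 of the 16 nuclear chromosomes, 5 of them within 50 kb of a chromosome end. QCR9 and QCR10 contain an intron, and 0 of the 33 overlap another annotated gene. All 50-base stretches of all 33 coding sequences occur once in the genome, so at this length a read from one of these genes matches 1 place. The 300 bases before each start codon were searched on both strands for the Hap2/3/4/5 motifs CCAAT and, containing it, ACCAATNA, and for the consensus motif of Hap1, a pair of CGG triplets with a fixed spacing. CCAAT occurred in front of 28 of the 33 genes (84.8%) and of 41.8% of all 6007 nuclear genes with a full window. The longer ACCAATNA occurred in front of 12 of the 33 (36.4%) and of 5.21% of all genes. Those 12 were 4 of the 8 cytochrome c oxidase genes, 2 of the 9 bc1 genes, 6 of the 10 ATP synthase genes and 0 of the succinate dehydrogenase and cytochrome c genes. The Hap1 motif occurred in front of QCR6 alone (3.03% of the 33, against 0.133% of all genes). In a window of 600 bases, chosen after the values were seen, the shares were 93.9% for CCAAT (all genes 70.3%), 45.5% for ACCAATNA (all genes 10.3%) and 6.06% for the Hap1 motif (all genes 0.533%). A match is a description of letters, and binding was not measured. Only these fixed motifs in these windows were searched, so a gene without a match may still hold a site.

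Of the 12 matches to ACCAATNA within 300 bases, 11 read in the direction of the gene, and they lay 134 to 248 bases before the start codon with a median of 200. The stretches below show the match in 1 or more members of each complex that had one, among them COX12, QCR7 and ATP15, whose values are given further on, in the direction of the gene and with the motif in capitals. Coordinates are those of R64, the S288C genome. COX12 (chrXII:225360-225389, minus strand) and QCR7 (chrIV:1496712-1496741, minus strand) share the same 8 letters, as do RIP1, the Rieske iron-sulphur subunit of the bc1 complex (chrV:107001-107030, plus strand) and, outside the 300-base window at 318 bases, SDH1 (chrXI:171429-171458, minus strand). ATP15 (chrXVI:29934-29963, plus strand) and ATP7 (chrXI:408149-408178, minus strand) differ from them at the free position of the motif. QCR6 (chrVI:225039-225068, minus strand) is shown for the more distant of its 2 matches to the Hap1 motif, read here from the other strand.
COX12: tcataacattgACCAATCAattttcagaaa
QCR7: atcttgttttgACCAATCAggagcgacgcg
RIP1: ctccataacggACCAATCAgcgttttgcgc
SDH1: ggcgggggtggACCAATCAcagcgcagaac
ATP15: cttttatacgaACCAATGAaatttgatcct
ATP7: gtaaaagatacACCAATTAccacttgctgc
QCR6: ggcggcctgCCGGTACATCCGtcacctaca

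In G1 the respiratory genes were abundant, and nearly all lay in a narrow band. Per kb of coding sequence, CYC1 (YJR048W, chromosome X, 526335 to 526664), the main cytochrome c gene under aerobic growth, stood at 52243 ± 9394 normalised reads in SSDDCS and 52974 ± 9306 in sml1Δ (mean ± SD, n = 4 libraries each). ATP2 (YJR121W), the catalytic beta subunit of the ATP synthase, followed with 24115 ± 1253 in SSDDCS and 22023 ± 2249 in sml1Δ. CYC7 (YEL039C), the cytochrome c isoform of hypoxic cells, was the lowest with 1108 ± 405 in SSDDCS and 986 ± 269 in sml1Δ. Next to it was SDH1 (YKL148C, chromosome XI, 169207 to 171129), the flavoprotein subunit of succinate dehydrogenase, with 7319 ± 355 in SSDDCS and 6364 ± 1146 in sml1Δ. The rest ran from QCR9, a small bc1 subunit, at 19677 ± 2412 in SSDDCS and from ATP15, the epsilon subunit of the ATP synthase, at 19723 ± 1054 in sml1Δ, down to ATP20, the g subunit of the ATP synthase, at 9600 ± 1039 in SSDDCS and 9005 ± 1196 in sml1Δ. Neighbours in the order lay further apart than the larger of their SDs in 6 of 32 pairs in SSDDCS and 5 of 32 in sml1Δ, 3 of which were the same in both strains (CYC1 above ATP2, ATP20 above SDH1 and SDH1 above CYC7). The lowest number of reads behind any single value was 85, in CYC7.

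**Figure D1:**
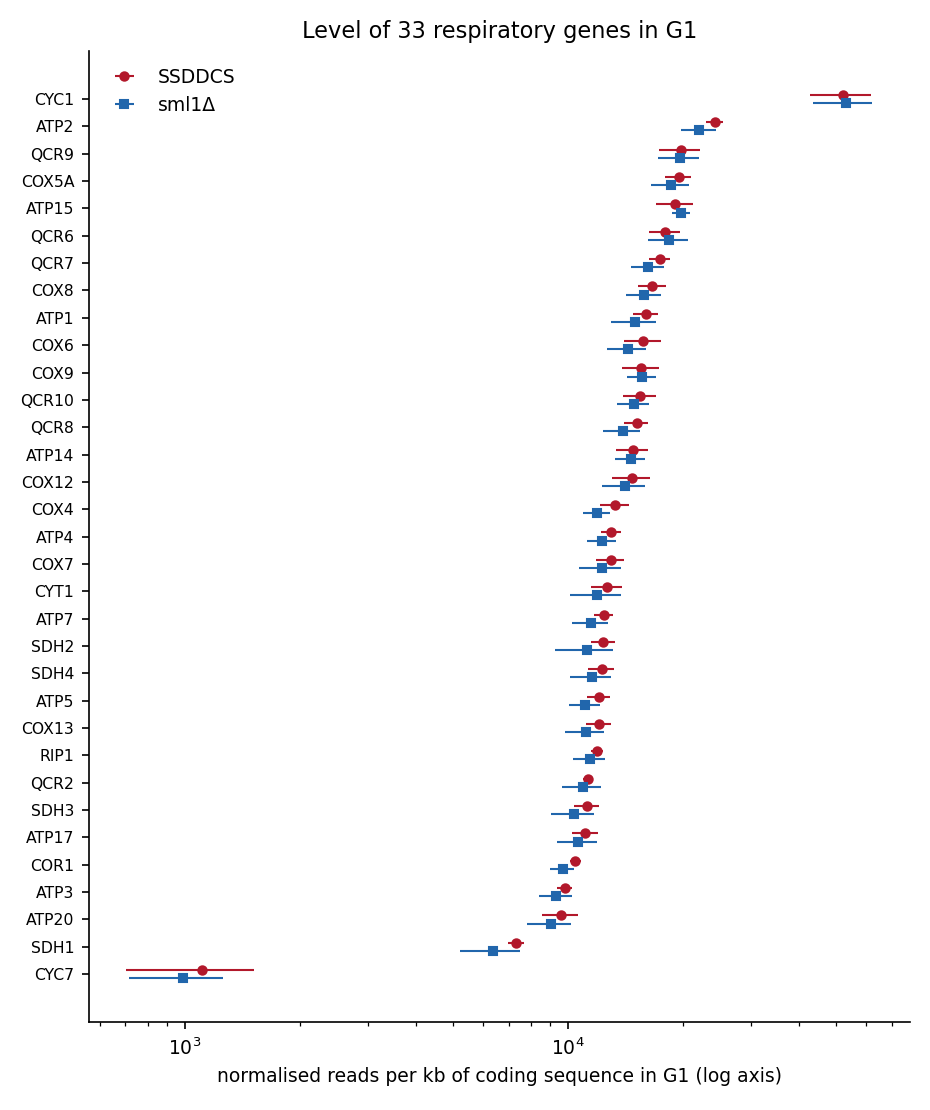
Level of each of the 33 genes in G1, in normalised reads per kb of coding sequence on a log axis, as the mean (symbol) ± SD (line) of 4 libraries in SSDDCS (red circles) and sml1Δ (blue squares), sorted by the SSDDCS mean. CYC1 stands alone at the top near 52243 in SSDDCS, CYC7 alone at the bottom near 1108 in SSDDCS, and the strains lie side by side for every gene.

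After release, the respiratory genes fell together and came back together. At 10 min after release, 32 of the 33 were called lower than in G1 in SSDDCS and 32 in sml1Δ, where 27.6% and 27.2% of all genes were called lower. The exception in both was CYC7. The median change over the 33 at 10 min was -1.04 in SSDDCS and -1.29 in sml1Δ, and over all genes it was 0.01 in SSDDCS and -0.01 in sml1Δ. By 40 min after release 0 of the 33 were called lower than in G1 in either strain. Set directly against 10 min, a contrast added after the values were seen, 40 min had 32 of the 33 called higher in SSDDCS (all genes 22.1%, median of the 33 1.14) and 32 in sml1Δ (all genes 24%, median 1.38), again without CYC7. The fall and return were visible in the share of all normalised reads that the 33 genes took. In SSDDCS this share was 2.44% ± 0.0892 in G1, 1.12% ± 0.123 at 10 min and 2.48% ± 0.108 at 40 min, and in sml1Δ it was 2.33% ± 0.188 in G1, 0.911% ± 0.0932 at 10 min and 2.34% ± 0.172 at 40 min (SD, n = 4 each).

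CYC1 and SDH1 show the range of the libraries behind this. At 10 min SDH1 had 4218, 3965, 3484 and 2967 normalised reads in the SSDDCS replicates 1 to 4, against 14467, 13397, 14827 and 13604 in G1. The sml1Δ replicates held 2422, 3901, 2807 and 2521 at 10 min, against 14058, 9677, 11119 and 14097 in G1. In both strains every 10 min library lay far below every G1 library, at 26.0% of the G1 mean in SSDDCS and 23.8% in sml1Δ (log2 change -1.95, SE 0.23, adjusted p = 1.74e-11 in SSDDCS; -2.08, SE 0.23, adjusted p = 1.7e-12 in sml1Δ, limma). At 40 min SDH1 was back at 14027, 11817, 13905 and 12327 in SSDDCS and 13679, 14254, 13917 and 11839 in sml1Δ, overlapping the range of G1. CYC1 had 5878, 4998, 6105 and 4873 normalised reads at 10 min in SSDDCS, against 14562, 14727, 18871 and 20801 in G1. In the control strain it stood at 4549, 5604, 4696 and 4118 at 10 min, against 16070, 14163, 18412 and 21280 in G1. Again the libraries of 10 min and G1 did not overlap, and the log2 change was -1.65 (SE 0.19, adjusted p = 2.05e-11) in SSDDCS and -1.87 (SE 0.19, adjusted p = 1.54e-13) in sml1Δ in limma.

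The fall was already present at 5 min and ended gradually between 25 and 35 min. At 5, 15, 20, 25, 30 and 35 min, the members called lower than in G1 numbered 32, 32, 32, 26, 16 and 1 in SSDDCS, where 27.6%, 27.3%, 27.4%, 25.6%, 26.3% and 26.4% of all genes were called lower. In sml1Δ, the corresponding counts were 33, 32, 32, 25, 3 and 0, where the shares of all genes were 25.6%, 28.3%, 28.2%, 27.2%, 26.9% and 25.1%. From 40 min on, 0 members were called lower in either strain, while 25.9%, 23.6%, 21.1% and 14.6% of all genes were in SSDDCS at 40, 45, 50 and 60 min and 24.3%, 21.2%, 13.6% and 12.2% in sml1Δ. With the replicate number as a block, ATP15 was still called lower at 40 min in both strains and QCR10 at 60 min in SSDDCS. Over the whole course, all 33 members changed with time in each strain (limma F-test, all genes 86.8% in SSDDCS and 83.5% in sml1Δ). Up to 25 min the members were thus called lower far more often than genes at large, and from 35 min on less often. CYC7 was the member not called at 5 to 20 min, other than at 5 min in sml1Δ. The 3 members still called lower in sml1Δ at 30 min were ATP15, ATP17 and SDH3, and the 1 in SSDDCS at 35 min was ATP15. That the counts at 30 min differ between the strains is not a test of a strain difference, which is given further on. With the same block, 4 members were called lower at 35 min in SSDDCS (ATP15, ATP1, ATP17 and CYC1), 8 at 30 min and 2 at 35 min in sml1Δ (ATP15 and ATP17 at 35 min). The counts in this closing stretch also rested on single cultures. Without SSDDCS replicate 4 the SSDDCS count was 16 at 25 min, and at 30 min it was 6, 10 and 8 without SSDDCS replicates 2, 3 and 4. The sml1Δ count at 25 min was 9 without sml1Δ replicate 4.

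The time at which the genes were lowest depended on the culture. Over the 33 genes the geometric mean was lowest at 10 min in replicates 1, 2 and 3 of both strains and at 15 min in replicate 4 of both. In SSDDCS it was lowest at 3078, 3102, 3152 and 2029 normalised reads in replicates 1 to 4, which is -0.92, -1.0, -1.12 and -1.70 on the log2 scale against the G1 of the same culture. In sml1Δ it was lowest at 2278, 2638, 2427 and 1672, which is -1.44, -1.0, -1.30 and -1.99. Replicate 4 of each strain thus went lowest and turned last. By 40 min the geometric means were 6210, 6258, 6833 and 6508 in SSDDCS and 5788, 6289, 6698 and 5991 in sml1Δ, next to the G1 values of 5812, 6224, 6842 and 6588 in SSDDCS and 6200, 5258, 5992 and 6644 in sml1Δ.

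**Figure D2:**
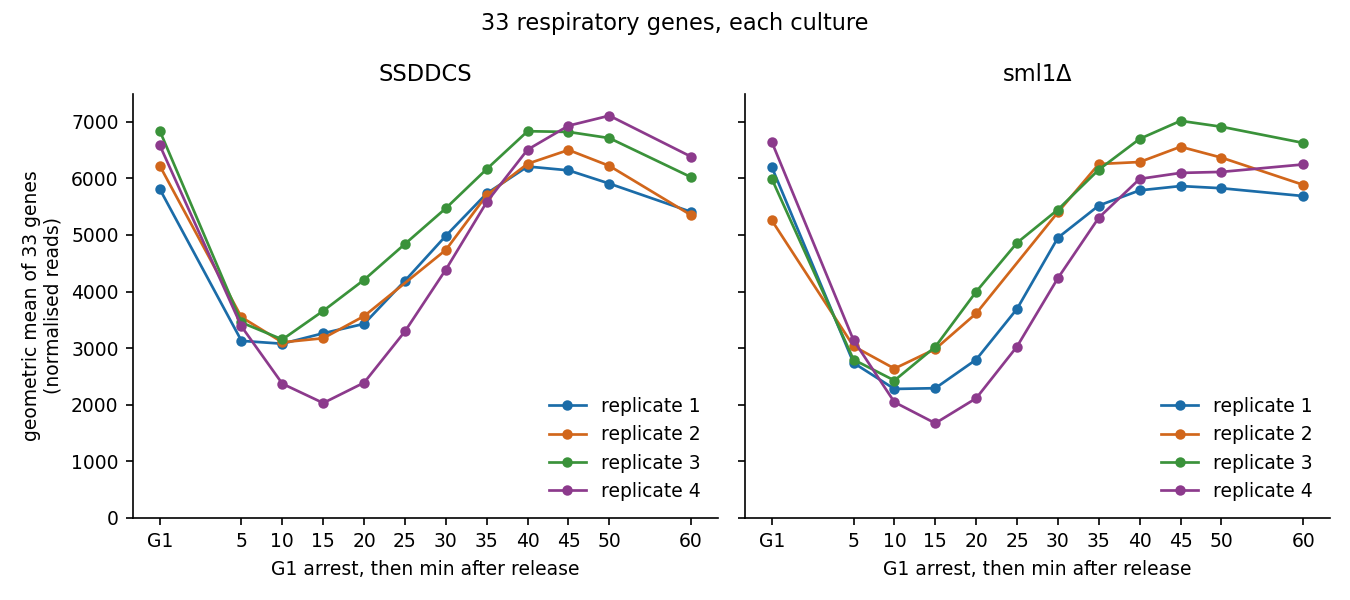
Geometric mean of the 33 genes in normalised reads (y axis, from 0) in G1 and against min after release, 1 line for each culture of SSDDCS (left) and sml1Δ (right), without replicate 2 at 25 min. All 8 lines drop within 10 to 15 min, replicate 4 reaching 2029 in SSDDCS and 1672 in sml1Δ at 15 min, and are back near their G1 level at 40 min.

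The depth of the fall was ordered by complex, with the same order in both strains. Taking each gene at its own lowest time point, the 4 succinate dehydrogenase genes fell furthest, with a median of -1.76 (range -1.95 to -1.61) in SSDDCS and -2.0 (range -2.17 to -1.89) in sml1Δ. CYC1 came next with -1.65 in SSDDCS and -1.87 in sml1Δ. The 9 bc1 genes followed at -1.27 (range -1.38 to -1.08) in SSDDCS and -1.52 (range -1.76 to -1.33) in sml1Δ. The 10 ATP synthase genes were at -1.06 (range -1.30 to -0.93) in SSDDCS and -1.26 (range -1.49 to -1.08) in sml1Δ. The 8 cytochrome c oxidase genes fell least, at -0.93 (range -1.01 to -0.68) in SSDDCS and -1.12 (range -1.24 to -0.85) in sml1Δ. The ranges of the succinate dehydrogenase genes and of the oxidase genes did not overlap in either strain. The order is a description over genes of 1 fit and was not tested.

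Complexes also differed in when they were lowest. Of the 9 bc1 genes, 8 were lowest at 10 min in each strain, with QCR10 at 15 min. Of the 10 ATP synthase genes, 2 were lowest at 10 min in SSDDCS, 5 at 15 min and 3 at 20 min, and in sml1Δ 2 were lowest at 10 min and 8 at 15 min. Those at 10 min were in both strains ATP1, the alpha subunit of the catalytic head, and ATP20. CYC7 was lowest at 5 min in both strains.

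QCR2, a core subunit of the bc1 complex, illustrates its group. At 10 min it had 5810, 5183, 5285 and 3399 normalised reads in SSDDCS, against 12281, 12119, 13027 and 12560 in G1. The libraries of sml1Δ held 3930, 4019, 3790 and 2675 at 10 min, against 13158, 10402, 11515 and 13338 in G1. Every 10 min library lay below every G1 library, and the mean stood at 39.4% of G1 in SSDDCS and 29.8% in sml1Δ (adjusted p = 1.34e-10 in SSDDCS and 1.34e-14 in sml1Δ, limma). At the other end, COX12, which encodes a subunit of cytochrome c oxidase on its intermembrane side, had 2293, 2411, 2503 and 1999 at 10 min in SSDDCS, against 3271, 3440, 4162 and 3946 in G1. For COX12 in sml1Δ the values were 1852, 1904, 1945 and 1843 at 10 min, against 3625, 2960, 3545 and 4068 in G1. The groups did not overlap here either, but the 10 min mean was 62.1% of G1 in SSDDCS and 53.1% in sml1Δ (adjusted p = 4.69e-08 in SSDDCS and 1.03e-11 in sml1Δ, limma).

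COX12 was also the single member called higher than in G1 at any time, in 1 time point of each strain. At 40 min it had 4235, 4588, 4914 and 4632 normalised reads in SSDDCS and 4160, 4162, 4693 and 4467 in sml1Δ, above the G1 values just given, by 0.31 in each strain (SE 0.105, adjusted p = 0.00754 in SSDDCS and 0.00929 in sml1Δ, limma). At this time 24.6% of all genes were called higher in SSDDCS and 24.7% in sml1Δ. The count became 0 in SSDDCS without SSDDCS replicate 1, 2 or 3 or sml1Δ replicate 1. In sml1Δ it became 0 with equal library totals and without SSDDCS replicate 1 or 2 or sml1Δ replicate 1, 2 or 3. With the replicate block, QCR7 joined it in SSDDCS at 40 min (0.35, adjusted p = 0.00911) and COX5A in sml1Δ (0.32, adjusted p = 0.0096).

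**Figure D3:**
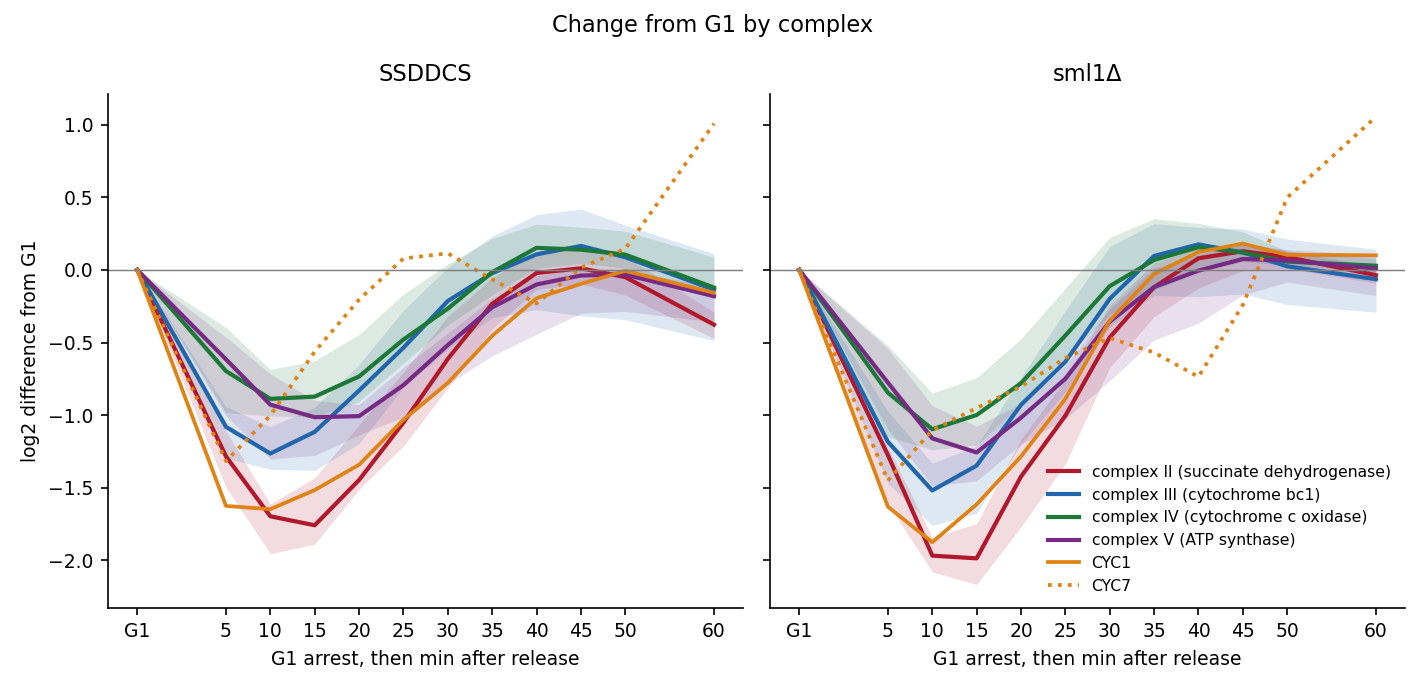
Median log2 difference from G1 (y axis) against min after release, for the genes of each complex in SSDDCS (left) and sml1Δ (right), with shading from the lowest to the highest gene of a complex, and CYC1 (solid) and CYC7 (dotted) drawn as single genes. Succinate dehydrogenase reaches -1.76 in SSDDCS and -2.0 in sml1Δ, cytochrome c oxidase -0.93 and -1.12 when each gene is taken at its lowest. By 40 min the complexes and CYC1 have come back towards 0, with ATP15 at -0.44 and QCR7 at 0.35 in SSDDCS.

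ATP15, the member called lower at the most time points, came back late. It had 2197, 1958, 2436 and 1781 normalised reads at 30 min in SSDDCS, against 3077, 3556, 3967 and 3816 in G1. The sml1Δ values were 2257, 2407, 2623 and 1627 at 30 min, against 3790, 3445, 3764 and 3911 in G1. No 30 min library reached the lowest G1 library, and the mean was at 58.1% of G1 in SSDDCS and 59.8% in sml1Δ. It was called lower at 7 time points in SSDDCS, up to 35 min (66.3% of G1, log2 change -0.59, SE 0.17, adjusted p = 0.00193), and at 6 in sml1Δ, up to 30 min (-0.76, SE 0.17, adjusted p = 8.71e-05, limma). With the replicate block it was also called at 40 min in SSDDCS (-0.44, adjusted p = 0.00115) and at 35 min (-0.48, adjusted p = 0.000427) and 40 min (-0.37, adjusted p = 0.00681) in sml1Δ. At 35 min in SSDDCS the count of 1 became 0 without SSDDCS replicate 2 or 4.

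At 60 min the members stood near G1 again, and 0 of the 33 were called in either direction. The median change was -0.17 in SSDDCS and 0.02 in sml1Δ. The largest fall in both strains was that of QCR10, a small subunit of the bc1 complex. It had 2315, 2323, 2834 and 2840 normalised reads at 60 min in SSDDCS, against 3204, 3499, 4071 and 3660 in G1. Its sml1Δ values were 2505, 2827, 3167 and 2856 at 60 min, against 3490, 3012, 3581 and 3810 in G1. The libraries of 60 min and G1 were apart in SSDDCS (-0.49, SE 0.16, adjusted p = 0.0109, and with the replicate block adjusted p = 0.000539) and overlapped in sml1Δ (-0.29, SE 0.16, adjusted p = 0.162, limma).

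CYC7 followed a course of its own in both strains. It had 616, 399, 846 and 1220 normalised reads at 60 min in SSDDCS, against 171, 449, 440 and 456 in G1. In sml1Δ the values were 402, 843, 1035 and 600, against 201, 369, 405 and 374 in G1. The mean was at 203% of G1 in SSDDCS and 213% in sml1Δ, but the cultures differed by severalfold and neither change was called (1.01, SE 0.48, adjusted p = 0.0827 in SSDDCS; 1.05, SE 0.48, adjusted p = 0.0816 in sml1Δ, limma). At 5 min its mean was 38.3% of G1 in SSDDCS (-1.32, adjusted p = 0.0131, with the replicate block 0.000947) and 36.0% in sml1Δ (-1.45, adjusted p = 0.00697). At 10 min the change was -1.0 in SSDDCS (adjusted p = 0.0597) and -1.10 in sml1Δ (adjusted p = 0.0394 in limma, with the replicate block 0.00554).

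Between the strains, 0 of the 33 respiratory genes were called at any of the 12 time points, that is in 0 of 396 comparisons of a gene at a time, although genes at large were called often. The share of all genes called for strain was 0.515% in G1 and low up to 15 min (0.281%, 0.203% and 2.72% at 5, 10 and 15 min). It was 17.9%, 21.5%, 31.2% and 27.4% at 20, 25, 30 and 35 min, and 19.7%, 13.4%, 9.06% and 5.2% at 40, 45, 50 and 60 min. Of the 396 comparisons, 40 had an unadjusted p under 0.05 in limma, and the lowest adjusted p was 0.0536, for CYC1 at 30 min. DESeq2 and edgeR on the recovered reads also called 0, with lowest adjusted p-values of 0.0489 and 0.0553, and so did limma with the replicate block, with 0.0125. Without SSDDCS replicate 4, QCR7 (0.57, adjusted p = 0.00295) and ATP3, the gamma subunit of the ATP synthase (0.50, adjusted p = 0.00569), were called higher in SSDDCS at 15 min. Leaving CYC7 aside, the differences ran from -0.45 to 0.51 with an SE of 0.105 to 0.278, and in 383 of the 396 comparisons the 95% interval lay within -1 to 1. The other 13 were in CYC7 and SDH4. A test of whether the strain difference departed from that in G1 called 0 of the 33 (limma F-test, lowest adjusted p = 0.208, 0 with an unadjusted p under 0.05), where 22.2% of all genes were called. With the replicate block it called 1, ATP5, the subunit that links the head and the stalk of the ATP synthase (adjusted p = 0.00832).

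The small differences that remained leaned the same way in most members in G1 and early after release. In G1 29 of the 33 were above 0, with a median of 0.09 (all genes 48.1%), though the median was below 0 in replicate pairs 1 and 4 (-0.09 and -0.03). At 10 min all 33 were higher in SSDDCS, with a median of 0.33 and a range of 0.13 to 0.46, where 49.2% of all genes were above 0. At 5 min 32 of the 33 were above 0 with a median of 0.23 (all genes 51.4%), and at 15 min all 33 with a median of 0.29 (all genes 46.4%). Of the 33, 3, 19 and 13 had an unadjusted p under 0.05 at 5, 10 and 15 min (limma), or 15, 26 and 23 with the replicate block, and none passed the adjustment. The median over the 33 was above 0 in every replicate pair at 5 min (0.14, 0.26, 0.32 and 0.11 in pairs 1 to 4), at 10 min (0.39, 0.27, 0.40 and 0.20) and at 15 min (0.48, 0.09, 0.30 and 0.27). At 15 min it was 0.12 without sml1Δ replicate 4 and 0.47 without SSDDCS replicate 4. At 20 and 25 min 30 and 24 of the 33 were above 0 (all genes 45.1% and 47.7%), with medians of 0.11 and 0.08 that became -0.07 and -0.09 without sml1Δ replicate 4, -0.01 and -0.06 without SSDDCS replicate 3, 0.27 and 0.24 without SSDDCS replicate 4 and 0.22 and 0.24 without sml1Δ replicate 3. At 30 and 35 min 12 and 14 were above 0 (all genes 45.2% and 45%), at 40, 45 and 50 min 23, 24 and 22 (all genes 44.2%, 46.4% and 45.4%, medians 0.07, 0.05 and 0.05), and at 60 min 9 (all genes 49.9%, median -0.09). Under quantile normalization and equal library totals the median was 0.01 and 0.03 at 30 min and 0.01 and -0.00 at 60 min, so no direction holds there, and 27 and 29 of the 33 were above 0 at 40 min. The members share libraries and move together, so these counts are not 33 independent observations.

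In a few members the early libraries of the strains did not overlap. At 5 min all SSDDCS libraries were above all sml1Δ libraries in 8 members, COX5A, QCR2, ATP3, ATP4, ATP5, ATP7, ATP17 and SDH2 (all genes 1.8%). At 10 min this held for 7, COX4, COX6, COX8, COX12, ATP4, ATP5 and ATP7 (all genes 2.17%). ATP4, ATP5 and ATP7, which encode subunits of the peripheral stalk of the ATP synthase, were in both. For ATP7 the difference at 10 min was 0.38 (adjusted p = 0.343), and for ATP5 it was 0.35 (adjusted p = 0.337, limma).

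**Figure D4:**
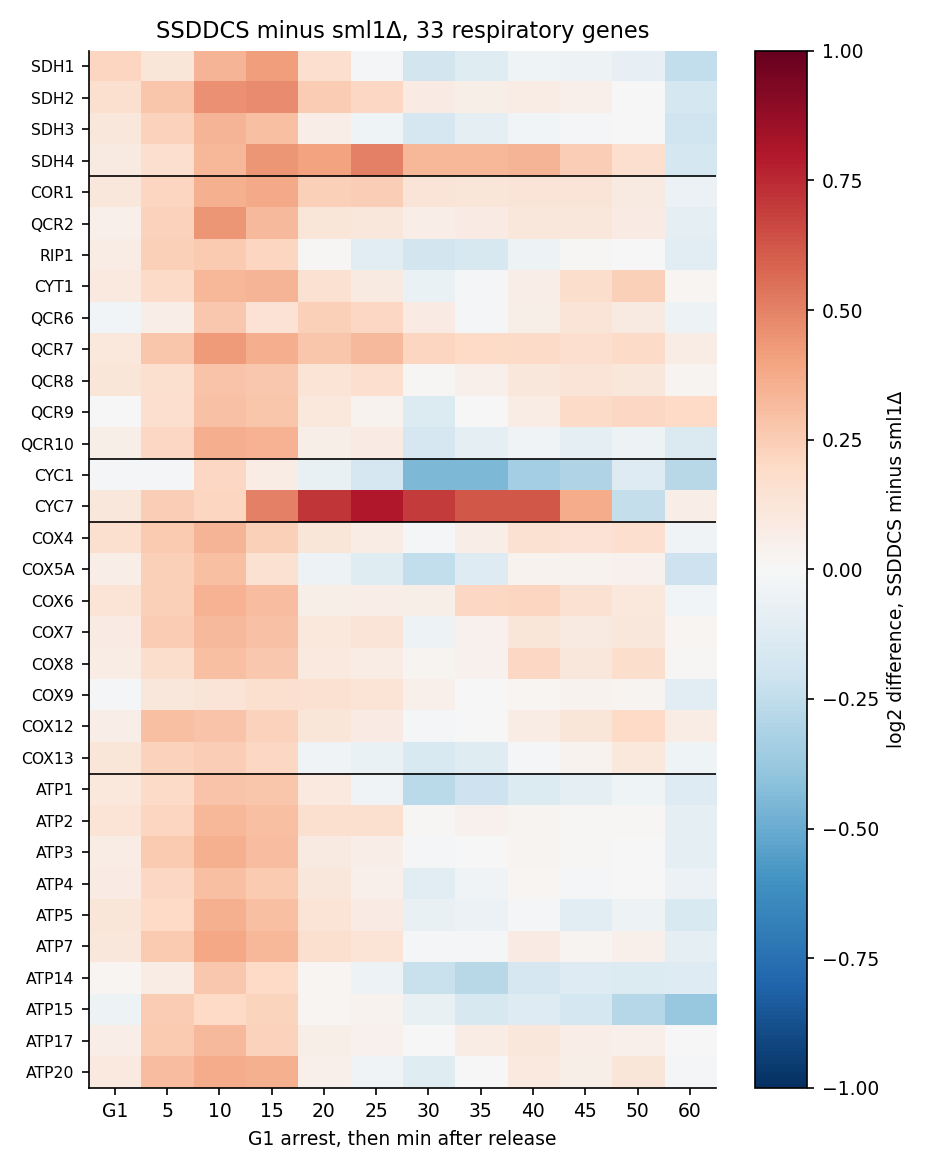
Log2 difference SSDDCS minus sml1Δ (colour, red higher in SSDDCS, blue lower) for each of the 33 genes (rows, by complex) in G1 and at each time after release (columns, in min). The columns of 5 to 15 min are red throughout apart from values near 0, with all 33 above 0 at 10 and 15 min, CYC1 is blue at 30 and 35 min, and 0 of the 396 squares were called.

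At 30 min, when the largest share of all genes was called for strain, the member of each complex with the largest strain difference was as follows. COX5A (YNL052W), the aerobic form of oxidase subunit V, had 8337, 8154, 9345 and 7825 normalised reads in SSDDCS, against 10235, 9617, 10098 and 9936 in sml1Δ. All SSDDCS libraries were below all sml1Δ libraries, which was so for 17% of all genes, and the difference was not called (-0.25, SE 0.13, adjusted p = 0.115, limma). QCR7 (YDR529C), a small subunit of the bc1 complex, had 6985, 6346, 7272 and 6404 in SSDDCS, against 6000, 6095, 6033 and 5200 in sml1Δ. Here all SSDDCS libraries were above (all genes 19.8%), again without a call (0.21, SE 0.14, adjusted p = 0.202). ATP1 had 18556, 15351, 17962 and 11948 in SSDDCS, against 21433, 20798, 19902 and 14424 in sml1Δ, with overlap, and replicate 4 was the lowest of each strain (-0.27, SE 0.20, adjusted p = 0.288). SDH4, a membrane anchor of succinate dehydrogenase, had 5424, 4762, 5288 and 4410 in SSDDCS, against 3527, 4613, 4936 and 2977 in sml1Δ, with overlap (0.33, SE 0.24, adjusted p = 0.262).

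The cytochrome c genes stood on opposite sides at 30 min. CYC1 had 9582, 8497, 12032 and 9950 normalised reads in SSDDCS, against 11853, 14837, 15719 and 12275 in sml1Δ. The groups overlapped by the third SSDDCS library alone, and the difference was -0.45 (SE 0.19, 95% interval -0.84 to -0.06, adjusted p = 0.0536, limma). CYC7 had 273, 416, 287 and 651 in SSDDCS, against 129, 338, 319 and 220 in sml1Δ, overlapping, with a difference of 0.70 (SE 0.48, adjusted p = 0.235). Neither was called. Per length, the ratio of CYC1 to CYC7 had a median of 28.8 in SSDDCS (range 15.8 to 43.4) and 54.4 in sml1Δ (range 45.4 to 95.5) at 30 min, and was closer at 60 min, with 22.1 (range 17.1 to 29.6) in SSDDCS and 28.6 (range 21.7 to 38.2) in sml1Δ.

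Minor forms of 2 succinate dehydrogenase subunits, which the list of 33 does not hold, differed between the strains. They were the 2 of 9 other nuclear subunits and isoforms called higher in SSDDCS at 30 min (all genes 16.9%), a share near that of genes at large, and 0 were called lower (14.3%). COX5B, the hypoxic form of oxidase subunit V, and SHH4, a paralogue of Sdh4, were called at 0 time points. YJL045W (chromosome X, 356024 to 357928), a minor form of the flavoprotein Sdh1, had 143, 170, 139 and 175 normalised reads at 30 min in SSDDCS, against 46.8, 55.5, 53.4 and 58.5 in sml1Δ. The libraries were widely apart, by 1.53 (SE 0.21, adjusted p = 6.66e-09, limma), and YJL045W was called higher at each of the 8 time points from 20 to 60 min. It already leaned higher in G1, with 55.7, 74.4, 78.7 and 84.4 in SSDDCS, against 51.4, 34.0, 59.5 and 64.6 in sml1Δ. These libraries overlapped and the difference in G1 was not called. SHH3 (chromosome XIII, 502144 to 502734), a paralogue of the membrane anchor Sdh3, had 208, 218, 209 and 276 at 30 min in SSDDCS, against 159, 184, 163 and 180 in sml1Δ. The strains did not overlap (0.40, SE 0.11, adjusted p = 0.00214), and SHH3 was called higher at the 6 time points from 25 to 50 min. The call at 30 min was lost without SSDDCS replicate 4 (0.30, adjusted p = 0.031), with quantile normalization (0.19, adjusted p = 0.171) and with 30 min fitted alone (adjusted p = 0.0224). For both genes the departure of the strain difference from G1 was called (adjusted p = 1.96e-06 for YJL045W and 8.61e-09 for SHH3, limma F-test), while it was not for SDH1 (0.83) or SDH3 (0.70).

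SHH3 also moved against the members after release. At 10 min it had 158 ± 19.8 normalised reads in SSDDCS, against 91.8 ± 9.05 in G1, and 202 ± 11.5 in sml1Δ, against 105.1 ± 23.5 in G1 (SD, n = 4 each). It rose by 0.77 in SSDDCS (adjusted p = 6.67e-09) and by 0.96 in sml1Δ (adjusted p = 5.55e-12, limma) at the time when SDH3 was near its lowest. The ratio of SDH3 to SHH3 per length therefore had a median of 15.1 at 10 min in SSDDCS, against 73.9 in G1, and 8.14 in sml1Δ, against 52.4 in G1. That of SDH1 to YJL045W was 54.3 (range 35.8 to 67.9) at 30 min in SSDDCS and 191 (range 114 to 201) in sml1Δ, without overlap, so that the minor form remained a small part of the pair in both strains. COX5B was not called against G1 at 10 min in either strain (0.42 in SSDDCS and 0.43 in sml1Δ, adjusted p = 0.227 and 0.214), while COX5A fell to 50.3% of G1 in SSDDCS and 42.3% in sml1Δ.

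**Figure D5:**
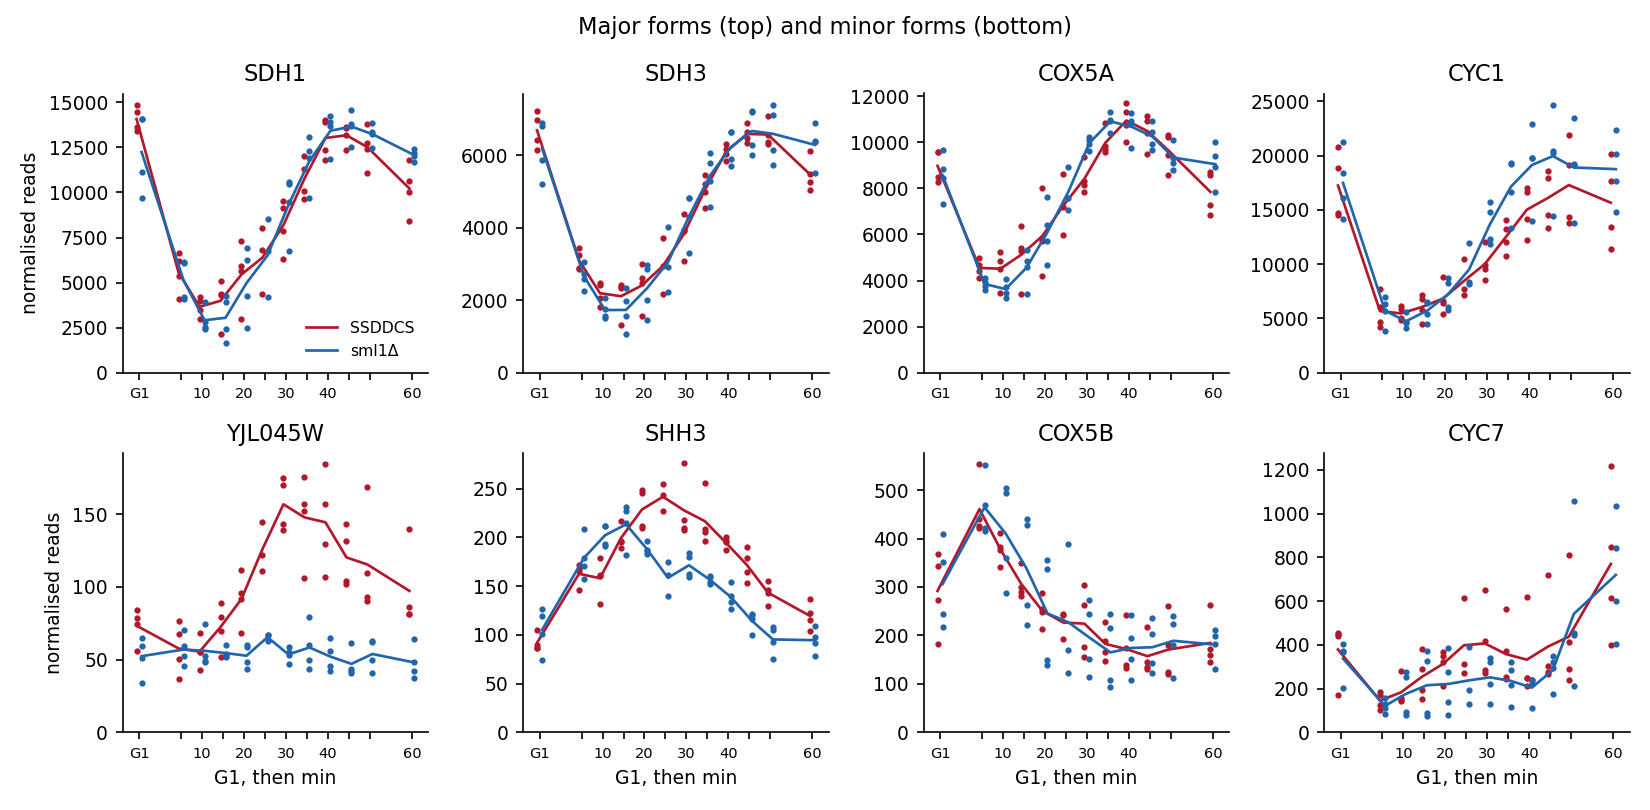
Normalised reads of 4 main subunit genes (top: SDH1, SDH3, COX5A, CYC1) and of their minor forms (bottom: YJL045W, SHH3, COX5B, CYC7) in G1 and against min after release, as single libraries (points) and means (lines) in SSDDCS (red) and sml1Δ (blue), each panel with its own axis from 0. The main forms fall and return in both strains, while YJL045W reaches 139 to 175 in SSDDCS at 30 min, against 46.8 to 58.5 in sml1Δ.

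Among the known activators, HAP2 differed between the strains from 30 min on and HAP3 at 60 min, while HAP4 and HAP5 were not called at any time. HAP2, a DNA-binding subunit of the CCAAT-binding complex, had 292, 302, 291 and 257 normalised reads at 30 min in SSDDCS, against 382, 400, 459 and 364 in sml1Δ. Every SSDDCS library was below every sml1Δ library (-0.49, SE 0.10, adjusted p = 4.91e-05, limma), which was so for 17% of all genes. HAP2 was called lower at the 6 time points from 30 to 60 min. At 30 min it was the 1 of 5 Hap regulators called, where 14.3% of all genes were called lower. HAP3, another DNA-binding subunit, averaged 378 ± 18.3 at 60 min in SSDDCS, against 548 ± 40.8 in sml1Δ (SD, n = 4 each). It was called lower at this time alone (-0.53, SE 0.13, adjusted p = 0.00411, limma), when 5.2% of all genes were called for strain in either direction. HAP4, the activating subunit, averaged 4777 ± 419 at 30 min in SSDDCS, against 4646 ± 515 in sml1Δ (SD, n = 4 each). The log2 difference was 0.04 (SE 0.20, adjusted p = 0.883). The differences at 30 min were -0.08 for HAP3 (adjusted p = 0.65) and -0.24 for HAP5 (adjusted p = 0.369). At 10 min, all 4 of these were called lower than in G1 in both strains (all genes 27.6% in SSDDCS and 27.2% in sml1Δ). HAP4 fell by 0.87 in SSDDCS (adjusted p = 0.000163) and by 1.11 in sml1Δ (adjusted p = 2.92e-06), HAP2 by 0.60 in SSDDCS and 0.41 in sml1Δ, HAP3 by 0.64 in SSDDCS and 0.84 in sml1Δ, and HAP5 by 0.77 in SSDDCS and 0.68 in sml1Δ. HAP1 carries a Ty1 insertion in the S288C reference genome, so that reads of Ty1 elements may enter its value, and it is not reported.

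The pathway around the complexes fell at the same time. At 10 min after release, 27.6% of all genes in SSDDCS and 27.2% in sml1Δ were called lower than in G1. All 11 genes of the tricarboxylic acid cycle were called lower in each strain, with a median of -1.72 in SSDDCS and -1.97 in sml1Δ. So were all 6 dehydrogenases that feed electrons into the chain, with a median of -2.28 in SSDDCS and -2.39 in sml1Δ. Among them GUT2, the mitochondrial glycerol-3-phosphate dehydrogenase, changed by -3.30 in SSDDCS and -3.44 in sml1Δ, CYB2, the lactate dehydrogenase cytochrome b2, by -3.41 in SSDDCS and -3.57 in sml1Δ, and NDI1, the internal NADH dehydrogenase, by -2.34 in SSDDCS and -2.62 in sml1Δ. Of 32 assembly factors, 31 were called lower in SSDDCS (median -1.28) and 30 in sml1Δ (median -1.19). Of 7 subunits encoded in mitochondrial DNA, 1, COX1, passed the filter, at means of 12.3 to 20.8 normalised reads in G1 and at 10 min, which is too low for a comparison with the nuclear genes.

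These groups did not all return with the members. At 40 min, 0 of the 33 were called lower than in G1 in the fit without the block. Of the 32 assembly factors, 21 were still called lower in SSDDCS (median -0.90) and 10 in sml1Δ (median -0.63). The shares of all genes called lower were 25.9% in SSDDCS and 24.3% in sml1Δ. Between 10 and 40 min, 8 of the 32 assembly factors were called higher in SSDDCS (all genes 22.1%) and 14 in sml1Δ (all genes 24%), close to genes at large in SSDDCS, while 11 of the 11 cycle genes were in SSDDCS and 10 in sml1Δ. Between the strains, 3 of these 49 genes were called at 30 min (6.12%), a smaller share than that of all genes (31.2%). NDE2, an external NADH dehydrogenase, had 161, 237, 113 and 201 normalised reads in SSDDCS, against 48.6, 55.5, 62.3 and 29.2 in sml1Δ. The groups were apart (1.84, SE 0.38, adjusted p = 6.52e-05, limma), whereas its paralogue NDE1 was not called (0.06, adjusted p = 0.743). LSC2, the beta subunit of succinyl-CoA ligase, had 5082, 5525, 4191 and 4147 in SSDDCS, against 2997, 3209, 3276 and 2216 in sml1Δ, also apart (0.70, SE 0.18, adjusted p = 0.00117). ATP23, a protease that matures the mitochondrially encoded Atp6, had 349, 300, 477 and 318 in SSDDCS, against 398, 546, 698 and 433 in sml1Δ, with overlap (-0.51, SE 0.16, adjusted p = 0.00658). This call was lost with equal library totals (-0.46, adjusted p = 0.025), with 30 min fitted alone (adjusted p = 0.0713) and without SSDDCS replicate 1, 2 or 4 or sml1Δ replicate 2 or 3.

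Mating-type genes differed between the strains at the same time. At 30 min, all 4 MATalpha markers, STE3 (2.70), MF(ALPHA)1 (2.38), SAG1 (0.57) and MF(ALPHA)2 (0.50), and 2 of the 5 MATa markers, BAR1 (2.16) and STE2 (0.72), were called higher in SSDDCS. Of all genes, 16.9% were called higher at this time. Values of the other MATa markers, MFA1, MFA2 and STE6, are not given here. The part of the mating-type genes in the differences of YJL045W, SHH3, NDE2 and LSC2 was not tested.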

How the data were processed

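RNA of 94 culture samples (2 strains, 12 time points, 8 cultures) was sequenced. Per the labels and the methods of the study, the authors counted reads per gene on the S288C R64 genome and divided them by DESeq2 size factors, which gives the deposited signal of normalised reads. The methods name bowtie2 as the aligner and the submitters' processing notes name TopHat2 2.0.6 and cutadapt, and the use of strand and the treatment of reads with several origins are not given in the sources used here. Divided by the smallest step between values of its library, 100% of values came out whole (tolerance 0.0001), so the reads behind them were recovered. Of the 96 columns, 2 matched no sample and were not used. In 138 replicate pairs the lowest chi-square per degree of freedom was 10.6, so no library was counted as a repeat of another.

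Genes with a mean of at least 10 (6414, with 30 left out) were fitted in limma 3.58.1 (R 4.3.3) on log2(value + 1), with 24 group means over 94 libraries and a mean-variance trend. Each strain comparison and each comparison with G1 was adjusted over all 6414 genes by the Benjamini-Hochberg method and called at an adjusted p under 0.01. Shares of all genes leave out the 6 factors and 4 marker genes (6404). Alternatives were a pseudocount of 0.1 or 5, no filter, equal library totals, quantile normalization, DESeq2 1.42.0 and edgeR 4.0.16 on the recovered reads, a replicate block, a correlation within cultures (0.376), each time point alone, exchanged 50 and 60 min labels in sml1Δ replicate 4, and leaving out each culture. The main limma fit was run on simulated counts with the same spread setting for all genes and changes at 30 min alone. That simulation held no shifts shared within a culture, so it cannot show how the fit handles them. Deviations from the group means correlated between same-numbered SSDDCS and sml1Δ cultures (0.69, 0.35, 0.32 and 0.20 for replicates 1 to 4). For SSDDCS replicates 1 to 3 the same-numbered sml1Δ culture was the most correlated. SSDDCS replicate 4 correlated more with sml1Δ replicate 3 (0.40), so the correlations do not pair it by number. Replicate pairs and the replicate block follow the numbers of the labels.

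The 33 genes, the other gene lists, the tests and the motifs were chosen with earlier results of these data known. Genes with values per library were taken by rule: in each complex the largest strain difference at 30 min, the member called at the most times, the largest rise and fall at 60 min, the Hap regulators and up to 3 called genes of other lists. SDH1, CYC1, QCR2, COX12 and the minor forms were named after their values were seen. Sequences are from the R64 genome given with the data, and coordinates count from 1.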

Additional observations from a re-analysis of the deposited data

Results flagged for a closer look

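In 34 groups of 4 libraries the lowest and highest library were set against the others, and 2 held a library that stood apart, where chance marks about 5% of groups. The mean log2 level of the 33 genes at 10 min was 11.21 in SSDDCS replicate 4, against 11.59 to 11.62 in the other SSDDCS cultures, a gap of 0.916 of the whole range. QCR7 had 5200 normalised reads at 30 min in sml1Δ replicate 4, against 6000 to 6095 in the other sml1Δ cultures, a gap of 0.894 of the range.

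For 5 of 64 tested genes of the related lists (7.81%, against 22.2% of all genes) the strain difference departed from that in G1 by a test of the difference itself (limma F-test over 11 later time points). The adjusted p was 1.96e-06 for YJL045W, 8.61e-09 for SHH3, 0.00265 for HAP2, 0.0024 for NDE2 and 0.00394 for LPD1, the dihydrolipoamide dehydrogenase shared by several mitochondrial enzyme complexes.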

How the results depend on the processing

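The alternatives left 366 of 382 of the counts that answer a comparison within 1.5 times of the reported one, and 0 called values changed sign. The untested median strain difference of the 33 did change sign, at 30 min (reported -0.02) to 0.01 with quantile normalization and 0.03 with equal library totals, at 35 min (-0.00) to 0.05 with quantile normalization and 0.04 with equal library totals, and at 60 min (-0.09) to 0.01 with quantile normalization. With 1 culture left out, its lowest and highest values were -0.07 and 0.27 at 20 min and -0.09 and 0.24 at 25 min, and the highest was 0.02 at 30 min and 0.03 at 35 min. Under either the replicate block or the culture correlation, the members called lower than in G1 were 4 at 35 min (reported 1), 1 at 40 min (0) and 1 at 60 min (0) in SSDDCS. In sml1Δ they were 8 with the block and 9 with the correlation at 30 min (3), 2 at 35 min (0) and 1 at 40 min (0). DESeq2 called 1 in SSDDCS at 60 min, and equal library totals gave 5 at 30 min and 2 at 35 min in sml1Δ. With the block, the strain difference of 1 member departed from G1 (reported 0). Beyond these and the single genes named with the block above, the block also added QCR8 at 25 min, COX6 and COX7 at 30 min, and COX12 and QCR6 at 45 min and COX12 at 50 min (both higher) in SSDDCS, and COX4, RIP1 and QCR8 at 25 min and COX5A and COX12 at 35 min (both higher) in sml1Δ, and it changed no other call of a member. The cause was not tested.

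Leaving out each culture in turn, 0 to 2 members were called for strain at 15 min. In SSDDCS the members called lower than in G1 ranged from 29 to 33 at 5 min, 31 to 32 at 20 min, 16 to 26 at 25 min, 6 to 17 at 30 min, 0 to 1 at 35 min, and 0 to 1 at 40 and 60 min. In sml1Δ they ranged from 32 to 33 at 5 min, 30 to 32 at 20 min, 9 to 28 at 25 min, 1 to 5 at 30 min and 0 to 2 at 35 min. Members changed with time in 32 to 33 cases in each strain, and 31 to 32 were called higher at 40 than at 10 min in SSDDCS. The lowest read number of a member, 85 in CYC7, limits that gene alone. For the other members, the spread between cultures (SE 0.105 to 0.278) set the size of a difference that could be called.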
